A study of Homo sapiens with 8 samples.

Results

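MiR-375 and miR-203a are microRNAs (miRNAs) of epithelial cells, and both were counted in HCT116, an established human colorectal cancer cell line, with and without a gut bacterium. They were taken by exact name, hsa-miR-375 and hsa-miR-203a, from files that list 2575 miRNA names each, and both names were present in all 8 libraries. In the ETBF group, 4 libraries, the cells had spent 6 hours with enterotoxigenic Bacteroides fragilis, a toxin-secreting colon anaerobe, at an MOI (bacteria added per cell) of 500. The other 4 came from control cells, which the titles call untreated and which received the bacteria's medium without ETBF per the protocol. All cells were grown attached at passages 16 to 19. HCT116 is 1 line from 1 tumour, and whether its replicates were grown as separate cultures is not stated, so p-values cover only the spread between these libraries, which could be technical.

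A miRNA is cut from a hairpin precursor and guides Argonaute proteins to messenger RNAs that pair with its seed, the bases near its 5′ end, which lowers the output of those messages. MiR-375 is known from pancreatic islets, where it restrains insulin secretion, and from gut epithelium and its endocrine cells, and it is often low in colorectal tumours. MiR-203a is known from skin, where it takes keratinocytes out of the dividing state by repressing the stem cell factor p63, and it also represses SNAI2, a driver of the epithelial to mesenchymal transition.

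The sequences are shown because the pair share no seed and because miR-203a lies opposite another miRNA gene. They are from RefSeq on GRCh38.p14, written 5′ to 3′, with bases 2 to 8 in capitals.
hsa-miR-375-3p: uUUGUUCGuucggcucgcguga
hsa-miR-375-5p: gCGACGAGccccucgcacaaacc
hsa-miR-203a-3p: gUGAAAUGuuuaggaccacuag
hsa-miR-203a-5p: aGUGGUUCuuaacaguucaacaguu
hsa-miR-203b-3p: uUGAACUGuuaagaaccacugga
hsa-miR-203b-5p: uAGUGGUCcuaaacauuucaca

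The deposited names carry no arm. Such bare names stood for the 3p products of both hairpins in earlier miRBase releases, but the release used for these files is not given in the sources used here. Among 2370 mature names in the RefSeq table, 0 others had bases 2 to 8 of miR-375-3p and 0 others those of miR-203a-3p. The closest other sequence to miR-375-3p was 8 edits away, and the closest to miR-203a-3p was miR-203b-3p at 6 edits. The hairpin of miR-375 (MIR375) is at chr2:219001645-219001708 on the minus strand of GRCh38.p14, within no annotated gene and between CRYBA2, a lens crystallin gene, and CFAP65-AS1. The hairpin of miR-203a (MIR203A) is at chr14:104117405-104117514 on the plus strand, between ASPG and KIF26A-DT. All 86 bases of the miR-203b hairpin (MIR203B, chr14:104117418-104117503) lie on the opposite strand within it. The GC content was 54.5% in miR-375-3p and 40.9% in miR-203a-3p.

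Library totals ran from 2591655 to 4706156 counts with ETBF and from 5243400 to 6522542 in controls, so depth moved with the group. A count of 3, the limit that a count of 0 allows, lay between 0.460 and 1.16 CPM (counts scaled to each library's total). Of 480 miRNAs with enough counts to test, 95 were higher and 70 lower with ETBF, 34.4% in all (edgeR quasi-likelihood test, Benjamini-Hochberg adjusted p under 0.05 over all 480). With upper-quartile scaling 71 were higher and 89 lower, 44.4% higher among those called against 57.6%. The epithelial character of the line was visible in the miR-200 family, the miRNAs that repress ZEB1 and ZEB2, which summed to 25248 ± 1361 CPM (SD, n = 4) in the ETBF libraries against 28977 ± 893 CPM (SD, n = 4) without the bacterium. Of 11 blood marker entries 5 could be tested, and their summed level was 75.2 to 113 CPM in the ETBF group against 65.4 to 74.1 CPM in the control group, with miR-150-3p at 0 in all libraries. Of 15 stroma and endothelium entries 9 could be tested, with sums of 1690 to 1903 CPM in the ETBF group against 2125 to 2320 CPM in the control group. Within that sum miR-126-3p went from 1520 ± 83.9 CPM in controls to 1131 ± 98.6 CPM with ETBF (SD, n = 4 each). Within the blood sum miR-451a went from 7.24 ± 1.97 to 29.4 ± 19.8 CPM (SD, n = 4 each). The other tested entries of both lists did not pass, except miR-145-3p, which rose. The part of these levels in the results below was not tested.

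MiR-375 was a smaller share of the counts with ETBF. Its counts were 1147, 1085, 949 and 672 in ETBF replicates 1 to 4 and 1873, 2153, 1976 and 2303 in control replicates 1 to 4. On the CPM scale, normalised by the trimmed mean of M values (TMM), the ETBF libraries were at 246, 255, 244 and 252 and the controls at 372, 379, 376 and 343. The groups did not overlap, with a gap between the highest ETBF and the lowest control value that was wider than the range within either group. Among the 480 tested, 33.8% had groups without overlap, 15.6% being lower with ETBF, and 14.6% were called lower. The mean fell to 249 ± 5.02 CPM (SD, n = 4) from a control level of 368 ± 16.4 CPM (SD, n = 4). This was a 1.48-fold fall, with a log2 fold change of -0.56 (SE 0.07, edgeR adjusted p = 1.69e-05). By size it was a moderate fall: 40 of the 480 had a lower log2 fold change. By the unadjusted p of the edgeR fit it ranked higher, with 24 of the 480 below it. CPM is a share of the counts, so the amount in the cells was not measured. In the bulk RNA used here, fewer cells with a miRNA and less of it per cell cannot be told apart.

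The miR-375 values lay close together with ETBF. The counting error of a single library, taken as the square root of its count, was 2.08% to 3.86%, while the ETBF libraries varied by 2.01% around their mean. Chi-square per degree of freedom against equal levels was 0.408 within the ETBF group and 4.63 within the control group, where control replicate 4 was the lowest at 343 CPM. The 4 ETBF libraries thus differed by less than counting noise and the controls by somewhat more. Amplified reads lacking molecular identifiers can be copies of 1 molecule, so these figures cover counting error alone.

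MiR-203a was a larger share of the counts with ETBF. Its counts were 6657, 6935, 7156 and 5345 in ETBF replicates 1 to 4 and 5940, 7785, 6593 and 8973 in control replicates 1 to 4. In CPM the ETBF libraries were at 1431, 1630, 1838 and 2000 and the controls at 1181, 1371, 1253 and 1338. Here too the groups did not overlap, though ETBF replicate 1 exceeded control replicate 2 by little. Among the 480 tested, 18.1% had ETBF values above all controls, and 19.8% were called higher. The mean rose to 1725 ± 248 CPM (SD, n = 4) from a control level of 1286 ± 85.7 CPM (SD, n = 4). This was a 1.34-fold rise, with a log2 fold change of 0.42 (SE 0.09, edgeR adjusted p = 0.00196). It was a rise of 439 CPM, against a fall of 119 CPM for miR-375. Among the 480, 95 miRNAs had a higher log2 fold change.

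Unlike miR-375, miR-203a varied between libraries far beyond counting. Its counting error was 1.06% to 1.37%, but the ETBF libraries varied by 14.4% around their mean and the controls by 6.66%. Chi-square per degree of freedom was 133 with ETBF and 30.8 in controls. Within the ETBF group its CPM ran in the reverse order of the library totals, with the highest value in replicate 4, the shallowest library at 2591655 counts, and the lowest in replicate 1, the deepest at 4706156. The part of depth in that order was not tested within the group. The controls did not run in such an order: control replicate 4, at 6522542 counts, had 1338 CPM and control replicate 1, at 5274167 counts, had 1181 CPM. Between the groups the log2 fold change was 0.43 (edgeR adjusted p = 0.000865) after every library was thinned to 2591655 counts, and 0.34 (adjusted p = 0.00808) without ETBF replicate 4. Thinning keeps the expected share of each miRNA in a library, so it evens out counting depth and no other difference between the libraries.

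**Figure D1:**
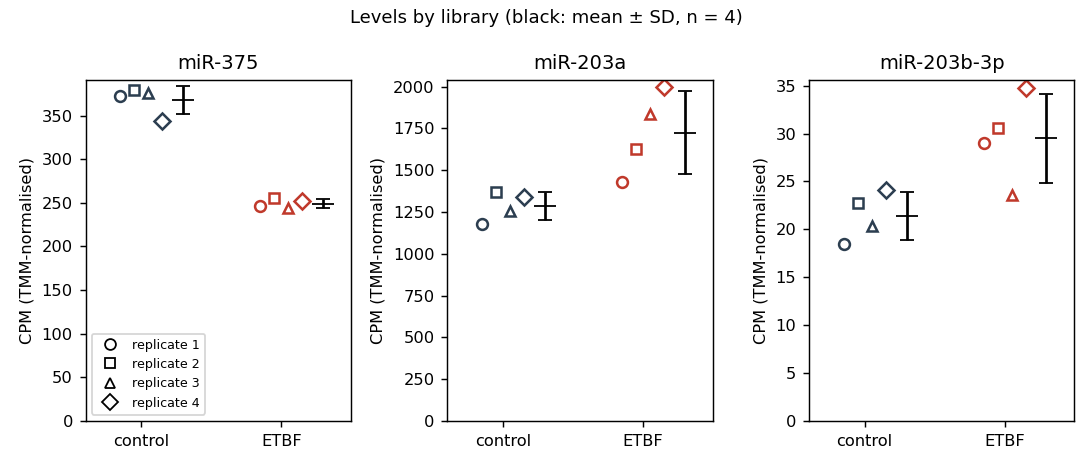
TMM-normalised CPM of miR-375, miR-203a and miR-203b-3p in each library, from 0, for 4 control and 4 ETBF libraries, with a marker shape for each replicate and the mean ± SD in black. The miR-375 values with ETBF sit between 244 and 255, below all controls, the miR-203a values with ETBF spread from 1431 to 2000, above all controls, and the groups overlap for miR-203b-3p.

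The opposite strand of the miR-203a hairpin gave few counts where miR-203a gave many. MiR-203b-5p shares 21 genome positions with miR-203a-3p on the other strand, and it had 1 to 3 counts in every library against 5345 to 8973 for miR-203a. It was too low to test. MiR-203b-3p, which shares 20 positions with miR-203a-5p, had 92 to 162 counts, and the groups overlapped. It went to 29.5 ± 4.62 CPM from a control level of 21.4 ± 2.51 CPM (SD, n = 4 in both groups), a rise by a log2 fold change of 0.45 (SE 0.13, edgeR adjusted p = 0.0156). That call was lost without ETBF replicate 2 (adjusted p = 0.0644), without ETBF replicate 4 (adjusted p = 0.0586) and after thinning (adjusted p = 0.0587). Per 100 counts of miR-203a there were 2.03, 1.87, 1.29 and 1.74 counts of miR-203b-3p with ETBF and 1.57, 1.66, 1.62 and 1.81 in controls, a ratio chosen after its values were seen. The control values lay within the range of the ETBF values. Whether strand was used in counting is not given in the sources used here.

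The balance between the 2 miRNAs moved by nearly 1 log2 unit. A ratio of counts within a library does not depend on how libraries are scaled, so 7 ratios were compared between the groups by exact permutation, two-sided, with 70 arrangements (smallest p 0.0286) and p-values adjusted over the 7. There were 5.80, 6.39, 7.54 and 7.95 counts of miR-203a per count of miR-375 in ETBF replicates 1 to 4. The controls had 3.17, 3.62, 3.34 and 3.90. The lowest ETBF library was above the highest control. This had to be so, since miR-375 was lower and miR-203a higher in all ETBF libraries than in all controls. The permutation p below was thereby fixed at its smallest value and adds no support to the 2 single calls. The mean ratio was 6.92 ± 0.995 in the ETBF group against 3.50 ± 0.319 in the control group (SD, n = 4 libraries per group). The difference of the mean log2 ratios was 0.97, a factor of 1.96 (exact permutation p = 0.0286, the smallest possible, adjusted p = 0.0333). With any 1 control library left out (replicate 1, 2, 3 or 4) the difference was 0.93, 0.99, 0.95 or 1.03 with an adjusted p of 0.05.

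Against 3 other sets of epithelial miRNAs, 5 of 6 ratios separated the groups. These ratios reuse the counts of miR-375 or miR-203a, so they are not independent of the calls above. Relative to the summed miR-200 family (9 entries), miR-375 fell by 0.36 on the log2 scale, from 0.0127 ± 0.000355 to 0.00990 ± 0.000682 counts per count of the family (SD, n = 4 each). MiR-203a gained 0.61 on the same scale, from 0.0444 ± 0.00283 to 0.0687 ± 0.0124. Relative to the intestinal miRNAs miR-192, miR-194 and miR-215, of which miR-192-5p and miR-194-5p had enough counts, miR-375 went from 1.09 ± 0.121 to 0.786 ± 0.0336 counts per count. This was a log2 difference of -0.47. MiR-203a went from 3.80 ± 0.216 to 5.42 ± 0.664, a log2 difference of 0.51. Each of these 4 ratios had no overlap between the groups and an exact permutation p of 0.0286 (adjusted p = 0.0333). For miR-203a to the miR-200 family this outcome was fixed by the levels. The family summed to 24137 to 27054 CPM with ETBF and to 28054 to 29990 CPM in controls, while miR-203a was higher without overlap. Without any 1 of the 4 control libraries the adjusted p was 0.05 for the miR-375 ratios and 0.0667 for those of miR-203a to the miR-200 family and to the intestinal miRNAs.

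MiR-31, which is raised in many colorectal tumours and is active in skin, divided the pair. MiR-375 went from 0.128 ± 0.0179 to 0.0676 ± 0.00787 counts per count of the miR-31 arms, a log2 difference of -0.92 without overlap (exact permutation p = 0.0286, adjusted p = 0.0333). Its adjusted p was 0.05 without any 1 of the 4 control libraries. MiR-203a was at 0.445 ± 0.0376 in controls and at 0.472 ± 0.117 in the ETBF group (SD, n = 4 libraries per group). The groups overlapped, with ETBF libraries from 0.376 to 0.625 and controls from 0.409 to 0.481. The log2 difference was 0.057 (exact permutation p = 0.886) and it turned to -0.089 without ETBF replicate 4, the highest of the 8. No difference between the responses of miR-203a and miR-31 was detectable with this spread, which does not show that they were alike.

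**Figure D2:**
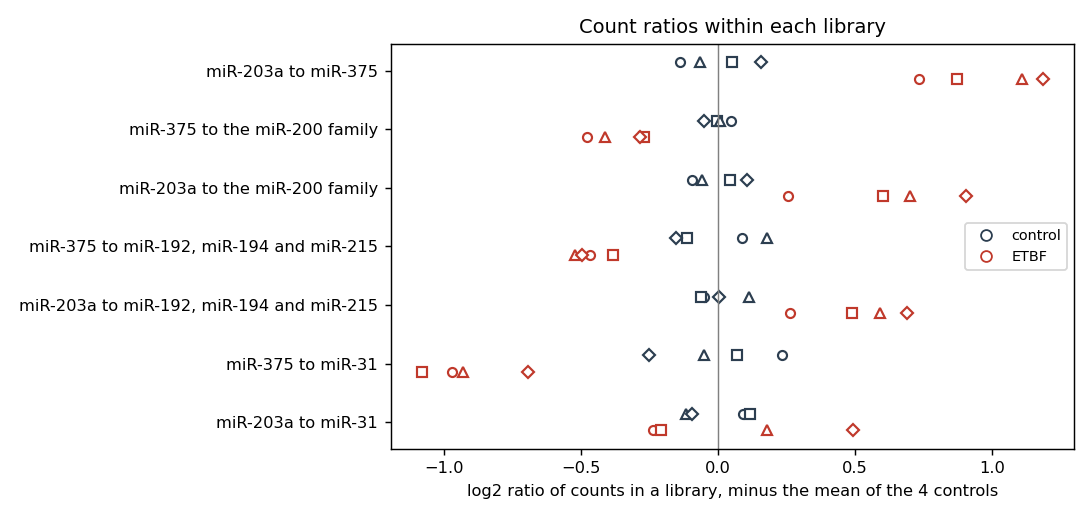
Log2 ratios of counts within each library, minus the mean of the 4 controls, for 7 ratios with miR-375 or miR-203a in the numerator, 1 marker per library and the same marker shapes per replicate as in the plot of levels. In 6 of the 7 the ETBF libraries sit apart from the controls, and the ratio of miR-203a to miR-31 overlaps.

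Among epithelial miRNAs, miR-203a stood near miR-429 and miR-375 near the minor arms miR-200a-5p and miR-31-3p. Each read is 1 small RNA of about the same length, so CPM values are set side by side here, although small RNAs differ in how well they are captured. By count, miR-203a ranked between 49 and 58 among all names in controls and between 44 and 50 with ETBF. MiR-375 ranked between 87 and 90 in controls and between 104 and 109 with ETBF. The next level above miR-203a was that of miR-429, a member of the miR-200 family, which exceeded it in 4 of 4 controls and in 2 of 4 ETBF libraries, so with ETBF these neighbours did not differ beyond their spread. MiR-375 was below miR-200a-5p, a minor arm, in all 8 libraries and above miR-194-5p in all 8. It was above miR-31-3p, the minor arm of miR-31, in 4 of 4 controls but in 1 of 4 ETBF libraries, where the means were 249 ± 5.02 and 259 ± 38.3 CPM and did not differ beyond their spread. These neighbours were chosen after their values were seen.

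The epithelial identity list, with both members, the miR-200 family, miR-205, miR-192, miR-194, miR-215, miR-31 and miR-203b, moved both ways. Of its 23 entries 16 could be tested: 7 rose, 5 fell and 4 did not pass, with a median log2 fold change of 0.14 against 0.01 over all 480, of which 19.8% rose and 14.6% fell. Beside the 2 members, 6 of 14 rose, 4 fell and 4 did not pass. MiR-375 had the lowest log2 fold change of the 16. The major arm miR-200c-3p fell (-0.32, SE 0.07), and so did miR-429 (-0.23, SE 0.07) and miR-200a-3p (-0.19, SE 0.06), while miR-31-5p rose (0.34, SE 0.10). The major arms miR-200b-3p (-0.03, SE 0.08) and miR-141-3p (-0.13, SE 0.10) did not pass. Of the minor arms of the miR-200 family, miR-141-5p (0.51, SE 0.09), miR-200c-5p (0.69, SE 0.25) and miR-200a-5p (0.30, SE 0.10) rose, 3 entries chosen after their values were seen. The minor arm miR-200b-5p did not pass (0.16, SE 0.10). The miR-141-5p call held in all 19 alternatives, that of miR-200a-5p in 12 of 19 (adjusted p = 0.130 without ETBF replicate 3 and 0.0694 without ETBF replicate 4, 0.0853 and 0.0982 without control replicates 3 and 4) and that of miR-200c-5p in 6 of 18. The miR-200c-5p call was lost without any 1 library except ETBF replicate 3 and control replicate 3 (adjusted p = 0.0513 to 0.151), in DESeq2 (0.0705), and with the replicate block (0.0785), which also ended the miR-200a-5p call (0.0865). The miR-429 call was lost without ETBF replicate 3 (adjusted p = 0.0576) and ETBF replicate 4 (0.0519), and that of miR-200a-3p when any library but ETBF replicate 2 and control replicate 1 was left out (adjusted p = 0.0581 to 0.105). The miR-200a-3p call was also lost with the replicate block (adjusted p = 0.0576), total-count scaling (0.166) and thinning (0.0503), and the miR-429 call with total-count scaling (0.0826). Without ETBF replicate 2 the list had 4 higher. Without ETBF replicate 4 it had 4 higher and 3 lower, and without ETBF replicate 3 it had 3 lower. With upper-quartile scaling 4 were higher, and with total-count scaling 3 were lower. MiR-205, the miRNA of basal and squamous epithelium that is often named with miR-203a, was nearly absent: miR-205-3p had 0 counts in all 8 libraries and miR-205-5p had 1 to 11.

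**Figure D3:**
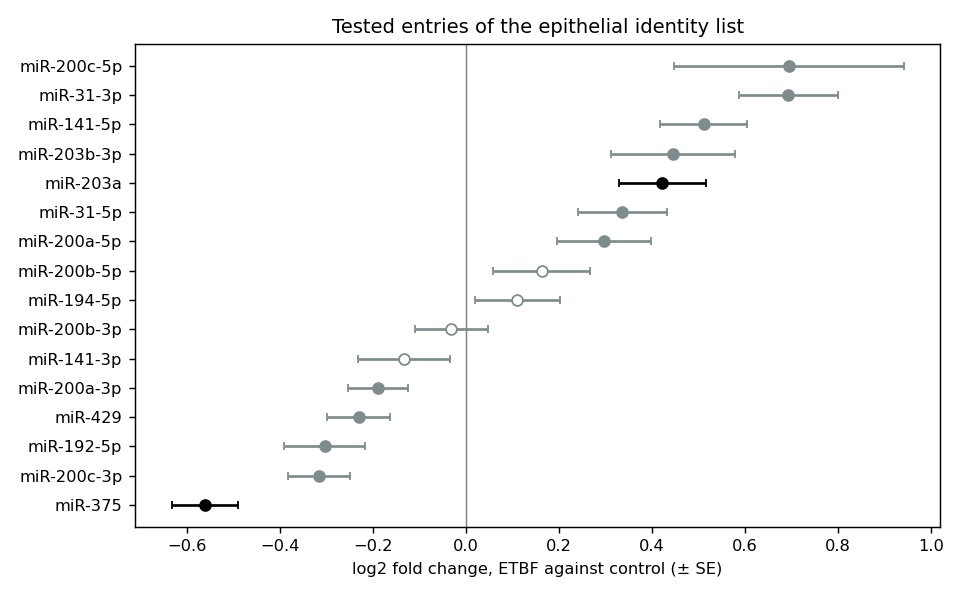
Log2 fold change with ETBF against control, with its SE, for the 16 tested entries of the epithelial identity list, where filled points passed the threshold and the 2 miRNAs described here are black. MiR-375 is the lowest at -0.56 and miR-203a lies in the upper part at 0.42.

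In the keratinocyte differentiation list, miRNAs known from skin, 15 of 20 entries could be tested: 6 rose, 2 fell and 7 did not pass (median log2 fold change 0.03), where 19.8% of all tested miRNAs rose and 14.6% fell. Beside miR-203a, miR-31-5p rose, as did 4 less abundant entries, among them miR-125b-1-3p, a minor arm of miR-125b (1.28, SE 0.08), miR-31-3p (0.69, SE 0.11) and the p53 target miR-34a-5p (0.40, SE 0.09), 3 entries chosen after their values were seen, with calls that held in all 19 alternatives. The abundant miR-24-3p (-0.31, SE 0.07) and miR-125b-5p (-0.32, SE 0.08) fell. The miR-31-5p call did not hold when ETBF replicate 1 (adjusted p = 0.0516) or ETBF replicate 2 (0.0798) was left out, with upper-quartile scaling (0.0621) or with the replicate block and GC correction together (0.0524). In the islet and neuroendocrine list, which holds miR-375 with miR-7, miR-9, miR-132 and others, 11 of 19 entries could be tested: 1 rose, 5 fell and 5 did not pass (median -0.31), beside the same 19.8% and 14.6% of all tested. Beside miR-375, miR-132-3p, a neuronal miRNA induced by the factor CREB, fell by 0.68 (SE 0.11) and miR-95-3p by 0.31 (SE 0.08). The remaining entries that fell were further products of the miR-132 and miR-212 locus, so the 5 are not all separate loci. The member that rose was miR-7-1-3p (0.26, SE 0.08), a minor arm, and its call held in 10 of 19 alternatives. Leaving out ETBF replicate 3, ETBF replicate 4 or any of control replicates 2 to 4 ended this call (edgeR adjusted p = 0.0555 to 0.0790). So did upper-quartile scaling (0.151), no filter (0.232), GC correction (0.0549) and the replicate block with GC correction (0.0850). The lists share members with each other and were drawn up with results of these data known.

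Of miRNAs often lower in colorectal tumours, 17 of 22 entries could be tested: 5 rose, 4 fell and 8 did not pass (median log2 fold change 0.09). Over all 480 tested miRNAs, 34.4% were called, 19.8% higher and 14.6% lower, against which these and the marker counts that follow are to be read. MiR-375 fell with miR-149 (-1.44, SE 0.20), whose hairpin lies in the proteoglycan gene GPC1, and with miR-126-3p (-0.43, SE 0.08), an endothelial miRNA from EGFL7. MiR-203a rose with miR-30a-5p (0.32, SE 0.08). Among blood markers the erythroid miR-451a rose (1.94, SE 0.35) and the other 4 tested entries did not pass. Among stroma and endothelium markers miR-145-3p rose (0.67, SE 0.12), miR-126-3p fell, and 7 did not pass. Those that did not pass included the other arms of these hairpins, miR-145-5p (0.03, SE 0.10) and miR-126-5p (-0.11, SE 0.10).

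The tested miRNAs closest in pattern to each member were found among 293 others with a mean of at least 10 CPM. Closeness was the root mean square difference of log2 CPM, centred over the 8 libraries, and it was 0.51 between miR-375 and miR-203a. Closest to miR-375 was miR-26a-5p, an abundant miRNA from introns of the CTDSP phosphatase genes, at 0.072. It went from 27438 ± 779 CPM in controls to 19513 ± 1124 CPM with ETBF (SD, n = 4 each; log2 fold change -0.49, SE 0.06). MiR-139-5p, from an intron of PDE2A and often low in colorectal tumours, was at 0.081 (log2 fold change -0.49, SE 0.08). MiR-222-3p, which represses the cell cycle inhibitor CDKN1B, was at 0.082 (-0.63, SE 0.07). Closest to miR-203a was miR-30d-3p, a minor arm, at 0.0995, and it went from 33.5 ± 2.20 to 49.1 ± 5.51 CPM (0.54, SE 0.11). MiR-449c-5p, known from multiciliated cells, was at 0.106 (0.26, SE 0.11, edgeR adjusted p = 0.0859), and this value passed without ETBF replicate 1 (0.34, adjusted p = 0.0251). MiR-374a-5p, from the FTX transcript, was at 0.107 (0.42, SE 0.09). The matches to miR-375 were closer than those to miR-203a.

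**Figure D4:**
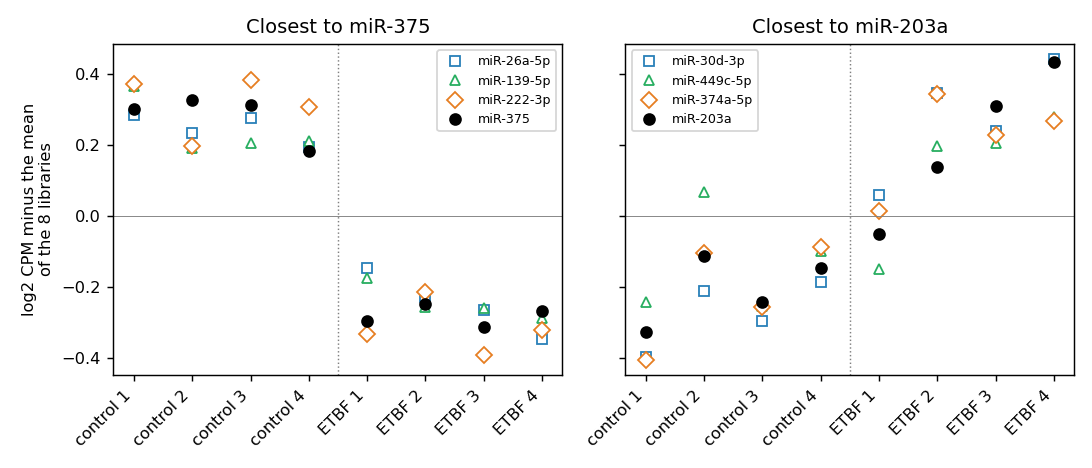
Log2 CPM minus the mean of the 8 libraries for miR-375 and miR-203a (black) and the 3 miRNAs closest to each, with controls left of the dotted line and ETBF libraries right of it. All 4 miRNAs of the miR-375 panel are above 0 in the controls and below 0 with ETBF, while the miR-203a panel is more scattered.

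Both calls held under each of the 19 alternatives of scaling, filter, test, depth, GC content and left-out library. The log2 fold change of miR-375 lay between -0.65 and -0.45 (highest adjusted p 0.00121) and that of miR-203a between 0.34 and 0.49 (highest adjusted p 0.0106). MiR-375 is richer in GC than miR-203a, and removal of each library's trend on GC content moved both toward 0, to -0.45 (SE 0.08) and 0.36 (SE 0.09), with edgeR adjusted p of 0.000168 and 0.00426. For these bare names the correction used the mean of both arms, 62.1% for miR-375 and 38.5% for miR-203a, not the 3p values.

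**Figure D5:**
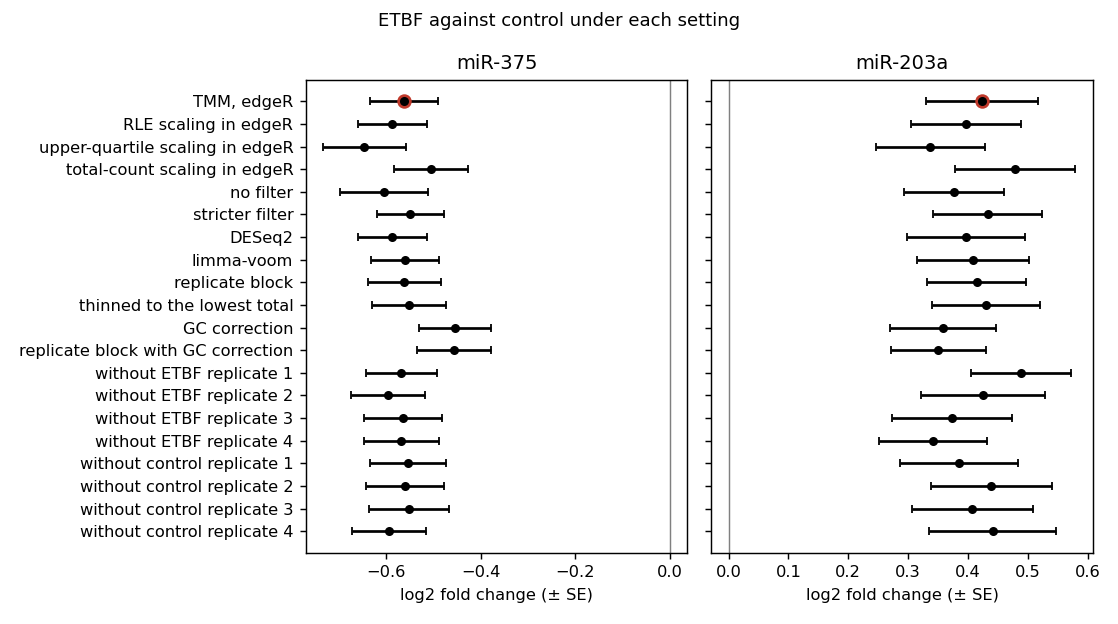
Log2 fold change with its SE for miR-375 and miR-203a with ETBF against control, under TMM scaling and edgeR (red) and each alternative in rows. All miR-375 values are between -0.65 and -0.45 and all miR-203a values between 0.34 and 0.49.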

How the data were processed

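Small RNA of HCT116 cells was sequenced in 4 ETBF and 4 control libraries, grouped by their titles. For each library the authors deposited a file of raw counts, with a row for every mature miRNA. Trimmomatic, FastQC, featureCounts and GRCh37.p5 are named per the submitters' processing notes. No aligner, miRNA release or strand option is named there. Counts were analysed in R 4.3.3 with edgeR 4.0.16 (TMM, filterByExpr at a minimum count of 10, quasi-likelihood F test, 480 tested miRNAs, p adjusted over all of them, threshold 0.05). Alternatives used DESeq2 1.42.0 and limma 3.58.1. The SE was approximated from each log2 fold change and its F statistic. Ratios had 0.5 added to counts. GC content came from RefSeq mature sequences, matched for 424 of the 480 (88.3%), with the mean of both arms for bare names. The edgeR step was tested on simulated data. The members and lists were chosen with earlier results of these data known. Named miRNAs were the members, the entries of the miR-203 hairpins, the 3 closest in pattern to each and, per list, up to 4 by abundance past the threshold (the 2 most abundant where none passed). Any other was named after its values were seen. Same-numbered replicates did not deviate together, so no block was used.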

Additional observations from a re-analysis of the deposited data

Results flagged for a closer look

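In 3 of 72 groups of 4 libraries examined for the named miRNAs and ratios, 1 library stood far from the other 3, which chance gives in about 1 of 20 groups. MiR-139-5p, close in pattern to miR-375, reached 259 CPM in control replicate 1, while the other controls had 229 to 233 CPM. MiR-149 reached 6438 CPM in control replicate 3, while the other controls had 5378 to 5498 CPM. MiR-34a-5p was at 217 CPM in ETBF replicate 4, while the other ETBF libraries had 256 to 262 CPM. No group of miR-375 or miR-203a values had such a library.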

How the results depend on the processing

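The log2 fold changes of miR-375 and miR-203a and the counts of miRNAs called higher (71 to 106) and lower (59 to 89) kept their direction and call, or stayed within 1.5 times, in all 19 alternatives. Replicate numbers are shared between the groups, but deviations from the group means correlated at -0.06 to 0.06 for same-numbered libraries, and ETBF replicate 1 correlated best with control replicate 3 (0.11). With the replicate block 92 miRNAs were higher and 67 lower. For the ratios, pairing by number gives 16 sign arrangements, too few for a p under the threshold, so with the block the adjusted p was 0.146 for the log2 differences of miR-203a to miR-375 (0.97), of miR-375 to the miR-200 family (-0.36), the intestinal miRNAs (-0.47) and miR-31 (-0.92), and of miR-203a to the miR-200 family (0.61) and the intestinal miRNAs (0.51). Leaving out 1 library gave, in the same order, 0.90 to 1.06, -0.39 to -0.32, -0.52 to -0.41, -1.001 to -0.84, 0.52 to 0.73 and 0.45 to 0.59. These 6 calls held without any 1 ETBF library and were lost without any 1 control library (exact permutation, adjusted p = 0.05 or 0.0667). With 1 library fewer there are fewer arrangements, and p moves in coarse steps. This applies equally when an ETBF library is left out, where the calls held. Each control library left out gave the losses, so they do not single out 1 control. For miR-203a to the miR-200 family, ETBF replicate 1 lay nearest the controls, at 0.0529 against 0.0416 to 0.0477 counts per count. The ratio of miR-203a to miR-31 lay between -0.089 and 0.16 and turned to -0.089 without ETBF replicate 4. The miR-203b-3p call, on 92 to 162 counts, was lost after thinning, and the calls of miR-375 and miR-203a were not.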
